A study of Mus musculus with 18 samples.

Results

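The 10 genes described here encode inflammatory cytokines, the NLRP3 inflammasome and regulators of NF-kB signalling: Il1a, Il1b, Tnf, Il18, Nlrp3, Pycard, Casp1, Il1rn, Nfkbia and Nfkb2. They were taken by symbol from a deposited table of bulk RNA-seq expression values, and all 10 were found among its 18683 genes. The libraries came from the prefrontal cortex and the hippocampus of male mice, all labelled with the strain C57BL/6J. Each tissue had 3 groups of 3 libraries. Wildtype PBS were wildtype mice that received PBS, 5xFAD PBS were 5xFAD mice that received PBS, and 5xFAD EV were 5xFAD mice that received extracellular vesicles isolated from human breast milk. Injections went into a vein at intervals of 3 days, 10 per mouse, from 5 to 6 months of age. Behavioural tests and a perfusion with cold PBS came before the tissue was taken. 5xFAD mice carry transgenes for human amyloid precursor protein and presenilin 1 with mutations of familial Alzheimer's disease, driven by the neuronal Thy1 promoter. The vesicles were given only to 5xFAD mice, so they were compared with PBS on that background alone. The labels do not say that the 3 replicates of a group were separate mice, so the p-values speak of the spread between samples as sequenced, and that spread may be technical.

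The inflammasome is a protein complex of the innate immune system. A sensor such as NLRP3 recruits the adaptor ASC, which Pycard encodes, and ASC recruits caspase 1, the protease that cuts the precursors of interleukin 1 beta and interleukin 18 into their active forms. Transcription of several of these genes is driven by NF-kB, a family of transcription factors that IkB alpha (encoded by Nfkbia) holds in the cytoplasm. Interleukin 1 alpha and beta signal through one receptor, and the receptor antagonist encoded by Il1rn competes with them for it. In the brain, microglia are the main cells that carry this machinery, and they gather around amyloid plaques.

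Library depth over the listed genes ran from 26437852 to 36901744 reads. Of 6 markers of hippocampal neurons 4 were higher in wildtype hippocampus than in wildtype prefrontal cortex, and 5 of 6 neocortical markers were lower (limma, adjusted p under 0.05, beside 8.72% and 7.16% of all 13574 genes tested). All 10 microglial markers on a list (such as Cx3cr1, P2ry12 and C1qa) were above 0 in every group. Their summed level in prefrontal cortex was 209 to 261 FPKM in wildtype PBS, 491 to 514 in 5xFAD PBS and 377 to 518 in 5xFAD EV. In hippocampus the same sum was 215 to 251 FPKM, 661 to 775 and 539 to 941. In 5xFAD PBS against wildtype PBS 9 of the 10 rose in each tissue (Tmem119 was the exception). Over all genes tested in that comparison, limma called 1.82% higher in prefrontal cortex and 4.19% in hippocampus. Choroid plexus markers (9 genes, among them Ttr) also differed between hippocampal groups, with sums of 32.3 to 164 FPKM in wildtype PBS, 2603 to 8872 in 5xFAD PBS, and 5677, 2260 and 183 in 5xFAD EV replicates 1 to 3. In prefrontal cortex that sum was 4.40 to 13.4 FPKM, except for 860 in 5xFAD EV replicate 3. In a bulk sample, more cells of a type and more RNA per cell cannot be told apart.

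Levels are in FPKM (fragments scaled to gene length and library depth), which can be compared between genes as far as the lengths behind them hold. The median over the 18 libraries was 11.3 FPKM for Nfkbia and 10.2 for Il18, the 2 genes well above the rest. Pycard and Casp1 followed at 2.02 and 1.87 FPKM. The other members were low, at 0.632 for Il1a, 0.562 for Il1rn, 0.352 for Il1b, 0.319 for Nlrp3, 0.213 for Nfkb2 and 0.111 for Tnf. The lengths used differ from the exon lengths of the GENCODE M21 annotation for several members, at 2805 against 5535 bases for Il1rn, 2135 against 3800 for Pycard, 1631 against 1031 for Il18 and 10990 against 4584 for Nfkb2. The order among neighbours is uncertain for that reason. By mean level Nfkbia stood above 72.7% of the listed genes and Tnf above 21.9%. Few reads lay behind the lowest genes: 1 to 20 per library for Tnf, 6 to 33 for Il1b, 6 to 82 for Il1rn and 17 to 77 for Nlrp3.

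**Figure D1:**
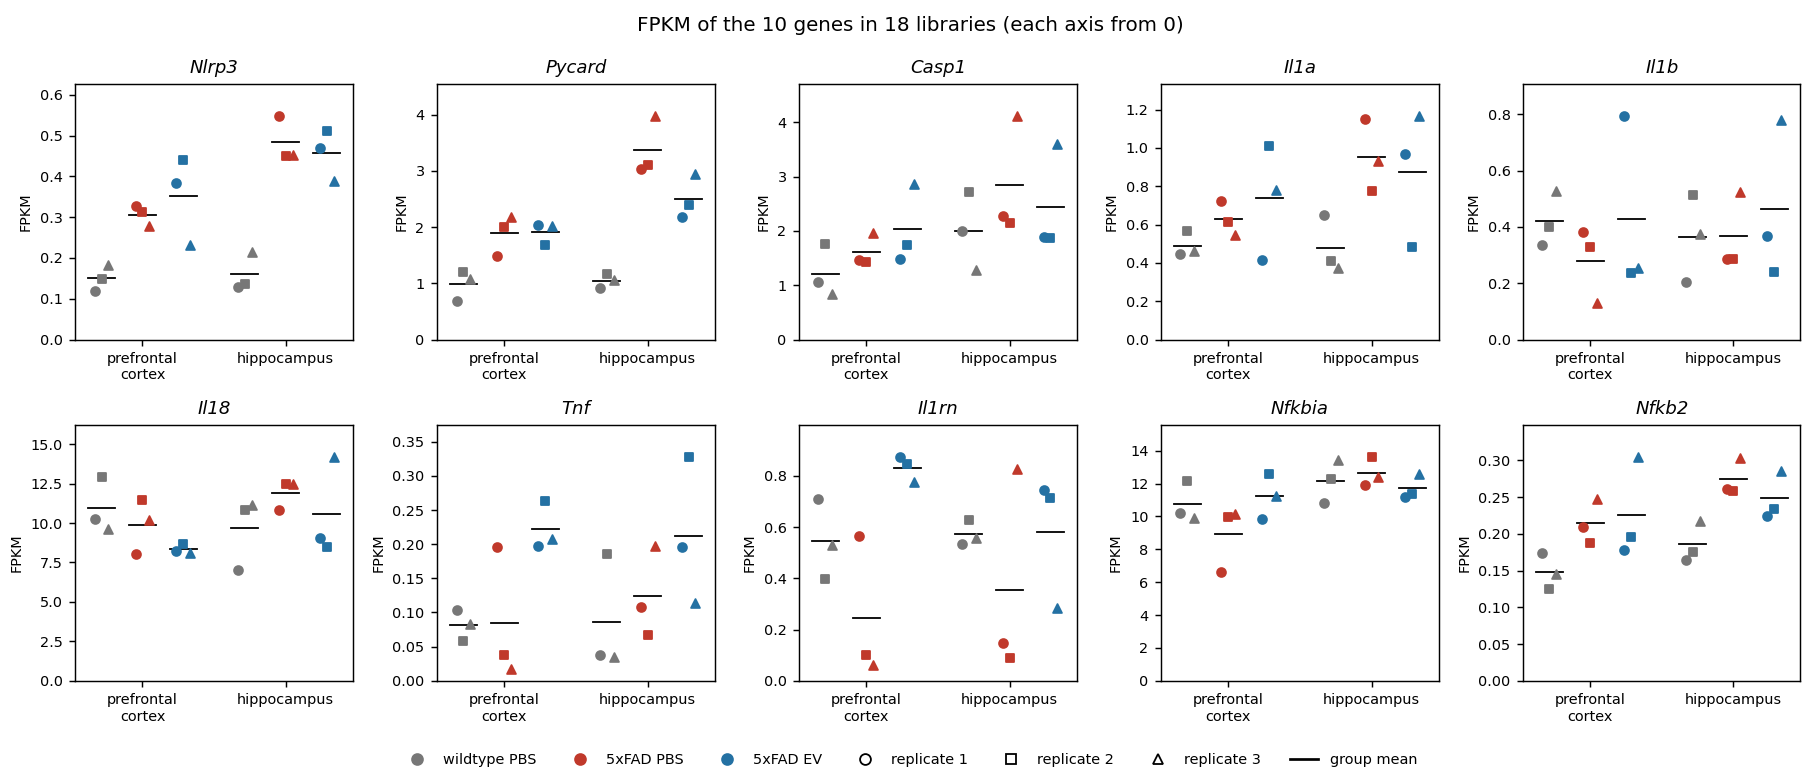
FPKM of each of the 10 genes (vertical axes, each from 0) in the 18 libraries, by tissue and group, with the marker shape giving the replicate and a bar at the group mean. Nlrp3 and Pycard lie higher in both 5xFAD groups than in wildtype PBS in both tissues, while Il1rn is spread from 0.0624 to 0.826 FPKM within 5xFAD PBS.

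The stretch upstream of each start site was searched for the NF-kB kappaB consensus, the 10-base motif that NF-kB dimers bind, on both strands. The sequences are RefSeq's, on the mouse build GRCm38.p6, another build than the GRCm39 named for the expression table. A match lay within 250 bases upstream of a start site in 3 of the 10 members (30%), Nlrp3, Nfkbia and Nfkb2, and in 2225 of all 27025 genes in the promoter table (8.23%). A match is a description of letters and not a measured site. The stretches of these 3 genes are shown, because they hold the matches, with that of Pycard, whose level rose in 5xFAD hippocampus and whose window holds none. Capitals mark the matched letters, and each sequence runs 5′ to 3′ on the strand of its gene. The Nlrp3 stretch is chr11:59541319-59541558 on the plus strand, with the match starting 186 bases before the first of its 2 start sites. The window of the other Nlrp3 start site holds none. The Nfkbia stretch is chr12:55492658-55492897 on the minus strand, with the match 29 bases before the start. For Nfkb2 only 30 bases are shown, chr19:46304687-46304716 on the plus strand, with overlapping matches from 39 and 38 bases before the first of its start sites. Outside the letters shown, Nfkb2 also had a match 11 bases before that site. Others lay 236 bases before its start site 2 and 225 before its start site 3. The Pycard stretch is chr7:127993878-127994117 on the minus strand.
Nlrp3: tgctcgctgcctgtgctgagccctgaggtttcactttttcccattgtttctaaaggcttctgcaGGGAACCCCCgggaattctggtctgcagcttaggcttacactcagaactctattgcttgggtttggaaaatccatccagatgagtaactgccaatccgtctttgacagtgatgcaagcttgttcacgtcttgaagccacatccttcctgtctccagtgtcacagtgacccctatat
Nfkbia: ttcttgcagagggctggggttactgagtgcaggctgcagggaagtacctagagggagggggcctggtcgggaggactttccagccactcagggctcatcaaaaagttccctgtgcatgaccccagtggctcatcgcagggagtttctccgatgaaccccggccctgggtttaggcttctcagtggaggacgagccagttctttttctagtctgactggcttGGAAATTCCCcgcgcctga
Nfkb2: gggatcgtcacGGGAATTCCCCccctcggg
Pycard: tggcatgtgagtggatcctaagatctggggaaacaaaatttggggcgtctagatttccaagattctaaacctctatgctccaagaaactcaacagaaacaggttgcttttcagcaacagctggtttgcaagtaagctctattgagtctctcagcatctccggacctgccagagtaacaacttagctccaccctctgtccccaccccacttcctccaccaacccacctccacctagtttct

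Pycard and Nlrp3 were the members that differed most clearly between 5xFAD and wildtype mice, and the difference was called in hippocampus. Tests used limma on log2(FPKM + 0.5) and kept the genes that reached 0.5 FPKM in 3 or more of the libraries fitted. Called means an adjusted p below 0.05. That filter left 6 members to test in prefrontal cortex and 7 in hippocampus. Tnf, Nlrp3 and Nfkb2 passed it in neither tissue and Il1b only in hippocampus. Read counts recovered from the FPKM steps were fitted with limma's voom as a further test, chosen after the data had been seen, in which all 10 could be tested. In 5xFAD PBS against wildtype PBS in hippocampus, 1 of 7 members was called higher (Pycard) and none lower, beside 4.19% and 0.406% of all 13305 genes. On reads it was 2 of 10 higher (Pycard and Nlrp3) and none lower, beside 3.53% and 0.292% of 15049 genes. FPKM of the groups did not overlap, with 5xFAD PBS higher, for 4 of 10 (Nlrp3, Pycard, Il1a and Nfkb2), beside 14.8% of all listed genes, and lower for 0 of 10, beside 6.97%. In prefrontal cortex 0 of 6 members were called, beside 1.82% of 13055 genes higher and 0.138% lower, with 2 of the 6 at an unadjusted p under 0.05, as were 1065 genes in all. On reads 0 of 10 were called, beside 1.58% higher and 0.121% lower, with 3 at an unadjusted p under 0.05, as were 1222 of 14845 genes. Groups did not overlap for 3 of 10 (Nlrp3, Pycard and Nfkb2, all higher in 5xFAD PBS), beside 8.84%, and for 0 of 10 lower, beside 4.01%. The median log2 fold change of the members tested was 0.31 in hippocampus and 0.02 in prefrontal cortex, and that of all genes was 0.02 in both.

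Nlrp3 (Entrez 216799), the inflammasome sensor, was low in wildtype brain. In prefrontal cortex it had 0.119, 0.149 and 0.182 FPKM in wildtype PBS, 0.327, 0.312 and 0.279 in 5xFAD PBS, and 0.385, 0.441 and 0.232 in 5xFAD EV. In hippocampus the values were 0.128, 0.137 and 0.216 FPKM, then 0.549, 0.451 and 0.452, then 0.469, 0.512 and 0.390. All 12 5xFAD libraries lay above all 6 wildtype libraries, and the share of all genes that do the same was not counted. The margin was narrow, with 0.232 FPKM (33 reads) in 5xFAD EV prefrontal cortex against 0.216 (31 reads) in wildtype PBS hippocampus. The ratio of mean FPKM in 5xFAD PBS to wildtype PBS was 3.02 in hippocampus (62 to 75 reads against 17 to 31) and 2.04 in prefrontal cortex. On reads the log2 fold change in hippocampus was 1.60 (SE 0.30, voom adjusted p = 0.0163), and 1.54 (SE 0.31, adjusted p = 0.0361) for 5xFAD EV against wildtype PBS. The first call was kept in 3 of 6 fits that each left out 1 library and lost without wildtype PBS replicate 1 or 2 or 5xFAD PBS replicate 1 (adjusted p 0.0342 to 0.0899, log2 fold change 1.47 to 1.83). The second was kept in 1 of 6, the fit without 5xFAD EV replicate 3 (adjusted p 0.0466 to 0.182). In prefrontal cortex the log2 fold change on reads was 1.03 (SE 0.35, adjusted p = 0.341) for 5xFAD PBS and 1.18 (SE 0.35, adjusted p = 0.158) for 5xFAD EV. The exact permutation test of 3 libraries against 3 gave its smallest possible p, 0.1, in each of these comparisons with wildtype PBS.

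Pycard (Entrez 66824), which encodes the adaptor ASC, rose in 5xFAD hippocampus. Hippocampal values were 0.919, 1.16 and 1.06 FPKM in wildtype PBS, 3.03, 3.10 and 3.98 in 5xFAD PBS, and 2.17, 2.40 and 2.94 in 5xFAD EV. In prefrontal cortex they were 0.692, 1.20 and 1.08 FPKM, then 1.49, 2.01 and 2.19, then 2.04, 1.68 and 2.02. Each 5xFAD group lay wholly above wildtype PBS of its tissue, and in hippocampus the 5xFAD EV libraries lay between the other 2 groups without touching either. Against wildtype PBS the log2 fold change in hippocampus was 1.32 (SE 0.14, limma adjusted p = 0.000965) for 5xFAD PBS and 0.95 (SE 0.14, adjusted p = 0.00737) for 5xFAD EV. The ratios of mean FPKM were 3.22 and 2.39. The first call held under all 22 alternatives (adjusted p 0.000837 to 0.0202). The second held in 17 of 22 and was lost in 5 of the 6 fits on reads that left out 1 library, all but the one without 5xFAD EV replicate 1 (adjusted p 0.0370 to 0.101). In prefrontal cortex the log2 fold changes were 0.69 (SE 0.16, adjusted p = 0.0774) and 0.71 (SE 0.16, adjusted p = 0.0718), neither called. The difference between tissues in the 5xFAD PBS effect was 0.63 (SE 0.22, adjusted p = 0.676), so a larger effect in hippocampus was not established. The summed microglial markers were higher in the same libraries, as were the choroid plexus markers in hippocampus, and their part in the Pycard and Nlrp3 values was not tested.

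Casp1 (Entrez 12362), the protease of the complex, varied widely within groups. It had 1.05, 1.75 and 0.836 FPKM in wildtype PBS, 1.46, 1.43 and 1.97 in 5xFAD PBS and 1.49, 1.74 and 2.86 in 5xFAD EV in prefrontal cortex. In hippocampus it had 2.01, 2.73 and 1.28 FPKM, then 2.27, 2.15 and 4.12, then 1.88, 1.86 and 3.60. The groups overlapped in every comparison, with replicate 3 the highest in all 4 5xFAD groups and the lowest in both wildtype groups. For 5xFAD PBS against wildtype PBS the log2 fold change was 0.33 (SE 0.23, limma adjusted p = 0.909) in prefrontal cortex and 0.41 (SE 0.30, adjusted p = 0.508) in hippocampus. Leaving out 1 library moved them to between 0.17 (without wildtype PBS replicate 3) and 0.55 (without wildtype PBS replicate 2) in prefrontal cortex. In hippocampus they moved to between 0.16 (without 5xFAD PBS replicate 3) and 0.62 (without wildtype PBS replicate 2), and none was called.

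**Figure D2:**
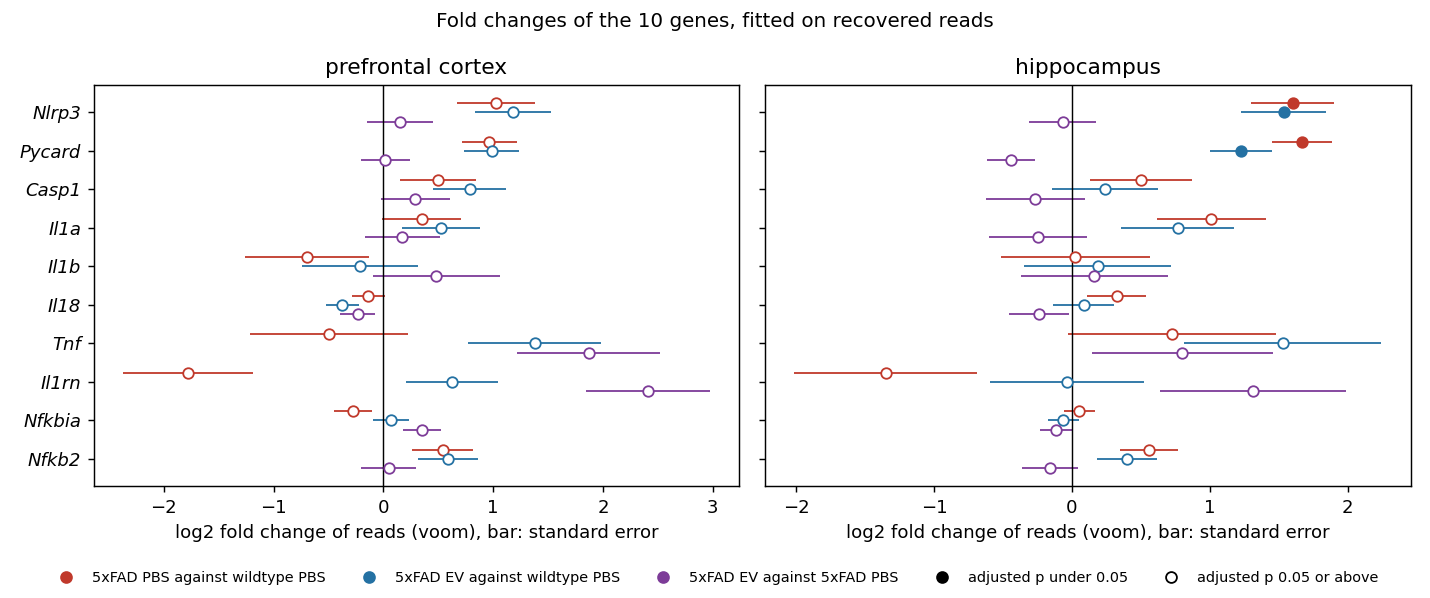
Log2 fold change of recovered reads (voom, horizontal axes) of the 10 genes in 3 comparisons per tissue, with bars of 1 standard error and filled points at an adjusted p under 0.05. Only Nlrp3 and Pycard in hippocampus, for both 5xFAD groups against wildtype PBS, have filled points, and the widest bars are those of Il1rn, Tnf and Il1b.

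Among the cytokines, no member was called in any comparison. Il1a (Entrez 16175), an alarmin that acts when cells are damaged, had 0.652, 0.409 and 0.374 FPKM in wildtype PBS hippocampus, 1.15, 0.775 and 0.933 in 5xFAD PBS and 0.968, 0.480 and 1.17 in 5xFAD EV. In prefrontal cortex it had 0.446, 0.566 and 0.460 FPKM, then 0.724, 0.612 and 0.547, then 0.414, 1.01 and 0.783. The 5xFAD PBS libraries lay wholly above wildtype PBS in hippocampus, and all other pairs of groups within a tissue overlapped. The hippocampal ratio of means was 1.99 and the log2 fold change 0.57 (SE 0.21, limma adjusted p = 0.176), with adjusted p between 0.109 and 0.412 over the alternatives.

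Il1b (Entrez 16176) encodes the classic product of the inflammasome. Its hippocampal values were 0.203, 0.514 and 0.377 FPKM in wildtype PBS, 0.286, 0.287 and 0.526 in 5xFAD PBS and 0.368, 0.240 and 0.781 in 5xFAD EV. In prefrontal cortex they were 0.335, 0.4002 and 0.527 FPKM, then 0.383, 0.328 and 0.129, then 0.796, 0.235 and 0.253. The groups of each tissue overlapped, and the highest library, 5xFAD EV prefrontal cortex replicate 1, held 33 reads. That library also had the highest summed level of 10 neutrophil and monocyte markers, 13.7 FPKM, where the other 17 had 0.513 to 5.33. On that list Ly6g and Retnlg were at 0 in both wildtype groups and Ly6g also in 5xFAD PBS prefrontal cortex, and the list's part in the Il1b value was not tested. The hippocampal log2 fold change of 5xFAD PBS against wildtype PBS was 0.01 (SE 0.23, limma adjusted p = 0.993).

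Il18 (Entrez 16173), the other cytokine that caspase 1 matures, was the most abundant cytokine of the set. In prefrontal cortex it had 10.2, 12.9 and 9.63 FPKM in wildtype PBS, 8.02, 11.5 and 10.2 in 5xFAD PBS and 8.24, 8.65 and 8.11 in 5xFAD EV. In hippocampus it had 6.99, 10.8 and 11.2 FPKM, then 10.8, 12.5 and 12.5, then 9.03, 8.46 and 14.2. The cortical 5xFAD EV libraries lay below all 3 cortical wildtype libraries and were close together, at 8.33 ± 0.281 FPKM (SD, n = 3) against 10.9 ± 1.75. That difference was -0.36 on the log2 scale (SE 0.14, limma adjusted p = 0.270) and was not called.

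Tnf (Entrez 21926), the founding member of the tumour necrosis factor family, was at the edge of detection. Prefrontal cortex had 6, 3 and 5 reads in wildtype PBS, 10, 2 and 1 in 5xFAD PBS and 10, 15 and 12 in 5xFAD EV. Hippocampus had 2, 11 and 2 reads, then 6, 4 and 11, then 11, 20 and 5. In FPKM the cortical 5xFAD EV libraries, at 0.198 to 0.263, lay above both other cortical groups, the closest being 5xFAD PBS replicate 1 at 0.196. Hippocampal groups overlapped. On reads the log2 fold change of 5xFAD EV against 5xFAD PBS in prefrontal cortex was 1.87 (SE 0.65, p = 0.0157, voom adjusted p = 0.814), not called, and the exact permutation p was 0.1, the smallest possible.

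Il1rn (Entrez 16181), the antagonist of the interleukin 1 receptor, varied widely within 5xFAD PBS. In prefrontal cortex it had 0.709, 0.398 and 0.529 FPKM in wildtype PBS, 0.567, 0.102 and 0.0624 in 5xFAD PBS and 0.874, 0.847 and 0.775 in 5xFAD EV. In hippocampus it had 0.536, 0.626 and 0.556 FPKM, then 0.149, 0.0893 and 0.826, then 0.744, 0.715 and 0.283. Of the 6 5xFAD PBS libraries 4 lay below every wildtype library, namely cortex replicates 2 and 3 (9 and 6 reads) and hippocampus replicates 1 and 2 (14 and 9 reads), and the other 2 lay within or above the wildtype range. Among the 6 5xFAD EV libraries 1 lay below every wildtype library. The cortical 5xFAD EV libraries lay above both other cortical groups.

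For Il1rn in prefrontal cortex the log2 fold change of 5xFAD EV against 5xFAD PBS was 0.90 (SE 0.22, limma adjusted p = 0.822), and on reads 2.41 (SE 0.57, voom adjusted p = 0.814). Neither was called, and all 3 5xFAD EV libraries lay above all 3 of 5xFAD PBS. 5xFAD PBS against wildtype PBS gave -0.54 (SE 0.22, adjusted p = 0.542), and -0.84 (adjusted p = 0.0392) without 5xFAD PBS replicate 1, which was then called. On reads the same comparison gave -1.78 (SE 0.59, adjusted p = 0.306), and -2.67 (adjusted p = 0.0396) without that replicate. In hippocampus it was -0.43 (SE 0.30, adjusted p = 0.492), and 5xFAD EV against 5xFAD PBS was 0.41 (SE 0.30, adjusted p = 0.867). Leaving out 1 library moved these to between -0.79 and -0.21 and between 0.19 and 0.77, with both largest sizes coming without 5xFAD PBS replicate 3 and both smallest without 5xFAD PBS replicate 2. These comparisons share the 5xFAD PBS libraries, so a low value there enters each of them.

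The genes whose levels ran most closely with Il1rn over the 18 libraries were Clec4e, an innate immune receptor of myeloid cells (Pearson r = 0.93), Saa3, an acute-phase protein (r = 0.76), and Ccl5, a chemokine (r = 0.74). The 18 libraries share tissues and groups, and r is given as a description. In 5xFAD PBS, Clec4e had 0.506, 0.0105 and 0 FPKM in prefrontal cortex and 0.0198, 0.0831 and 0.670 in hippocampus. Saa3 had 8.37, 1.02 and 0.549 FPKM, then 0.899, 0.681 and 7.27. Ccl5 had 2.44, 0.597 and 0.658 FPKM, then 1.403, 1.05 and 2.18. The same 4 libraries that were low in Il1rn were the lowest of the 6 in each of these genes. The genes were chosen by their r with Il1rn over these same libraries. Shared low values are therefore part of that choice and add no separate support. In the other 12 libraries Clec4e was between 0.326 and 1.24 FPKM. Among the members themselves, Tnf ran closest with Il1rn (r = 0.69), and Il18 ran against it (r = -0.49).

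**Figure D3:**
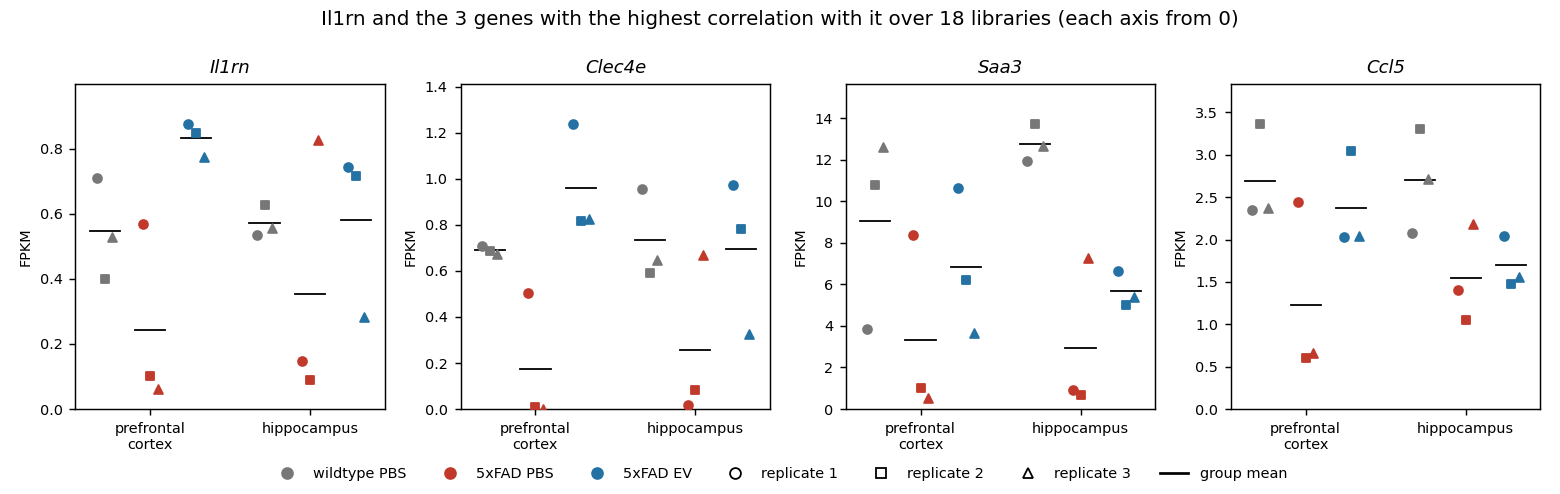
FPKM (vertical axes, each from 0) of Il1rn and the 3 genes with the highest Pearson r with it over the 18 libraries, by tissue and group, with the marker shape giving the replicate and a bar at the group mean. Prefrontal cortex replicates 2 and 3 and hippocampus replicates 1 and 2 of 5xFAD PBS sit at the bottom in all 4 panels, at 0.0624 to 0.149 FPKM of Il1rn. The 3 genes were chosen by that r, so their low values in these libraries are part of the choice.

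Of the NF-kB regulators, neither was called in any comparison. Nfkbia (Entrez 18035), the inhibitor IkB alpha and itself a well-known target of NF-kB, had 10.2, 12.1 and 9.89 FPKM in wildtype PBS prefrontal cortex, 6.60, 9.98 and 10.1 in 5xFAD PBS and 9.84, 12.6 and 11.3 in 5xFAD EV. In hippocampus it had 10.8, 12.3 and 13.4 FPKM, then 11.9, 13.6 and 12.4, then 11.2, 11.4 and 12.6. The groups overlapped in both tissues, with 5xFAD PBS prefrontal cortex replicate 1 the lowest library. For 5xFAD PBS against wildtype PBS the log2 fold change was -0.28 (SE 0.16, limma adjusted p = 0.829) in prefrontal cortex and 0.05 (SE 0.10, adjusted p = 0.823) in hippocampus. Nfkbia held 321 to 773 reads per library.

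Nfkb2 (Entrez 18034), which encodes the p100 precursor of the p52 subunit used by the non-canonical pathway, was low. In prefrontal cortex it had 0.173, 0.125 and 0.145 FPKM in wildtype PBS, 0.210, 0.188 and 0.247 in 5xFAD PBS and 0.179, 0.195 and 0.305 in 5xFAD EV. In hippocampus it had 0.165, 0.175 and 0.217 FPKM, then 0.261, 0.258 and 0.303, then 0.225, 0.234 and 0.286. Each 5xFAD group lay wholly above wildtype PBS of its tissue, with ratios of means of 1.45 and 1.48 for 5xFAD PBS in prefrontal cortex and hippocampus. On reads the log2 fold changes were 0.54 (SE 0.27, voom adjusted p = 0.712) and 0.56 (SE 0.21, adjusted p = 0.187), not called. In the GENCODE M21 annotation its exons overlap those of Psd, so its share of reads is uncertain as well as its level per length.

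The vesicles were compared with PBS in 5xFAD mice, and no member was called in either tissue. In prefrontal cortex 0 of 6 members were called by limma and 0 of 10 on reads, beside 0.0% of all genes in both fits. At an unadjusted p under 0.05 there was 1 of 6 by limma (Il1rn) and 2 of 10 on reads (Il1rn and Tnf), and 616 and 749 genes in all. The groups did not overlap for 2 of 10, Il1rn and Tnf, both higher in 5xFAD EV, beside 6.12% of listed genes, and for 0 of 10 lower, beside 3.59%. In hippocampus 0 of 7 and 0 of 10 were called, again beside 0.0%, with 1 member at an unadjusted p under 0.05 in each fit and 519 and 595 genes in all. That member was Pycard, at -0.37 (SE 0.14, limma adjusted p = 0.867). It was the 1 of 10 whose groups did not overlap, lower in 5xFAD EV, beside 5.14% of listed genes. None of the 10 was higher without overlap, beside 2.25%. The median log2 fold change of the members tested was 0.17 in prefrontal cortex and -0.11 in hippocampus, beside 0.02 and -0.02 over all genes.

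Against wildtype PBS, 5xFAD EV had 1 of 7 members called higher in hippocampus (Pycard), beside 1.93% of genes, and none lower, beside 0.173%. On reads 2 of 10 were called higher (Pycard and Nlrp3), beside 1.65%, and none lower, beside 0.12%. In prefrontal cortex 0 of 6 and 0 of 10 were called, beside 1.4% and 1.43% higher and 0.115% lower in each fit, with 3 of 6 and 5 of 10 at an unadjusted p under 0.05, as were 1959 of all 13055 genes and 2281 of 14845. With 5xFAD EV higher, groups did not overlap for 3 of 10 in hippocampus (Nlrp3, Pycard and Nfkb2), beside 9.62%, and for 0 of 10 with 5xFAD EV lower, beside 6.35%. In prefrontal cortex it was 5 of 10 (Tnf, Nlrp3, Pycard, Il1rn and Nfkb2), beside 12.4%, and Il18 was lower, 1 of 10, beside 4.39%. The 3 comparisons within a tissue share libraries and are not independent of each other.

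Between the tissues of wildtype PBS mice none of the 7 members tested was called, beside 8.72% of genes higher and 7.16% lower in hippocampus, and on reads 0 of 10, beside 8.11% and 6.9%. None was at an unadjusted p under 0.05 in either fit. No member's groups were free of overlap, beside 16.1% and 12.1%. Casp1 had the largest log2 difference of the 10, with 2.0 ± 0.725 FPKM (SD, n = 3) in hippocampus against 1.21 ± 0.478 in prefrontal cortex. It was 0.54 on the log2 scale (SE 0.29, limma adjusted p = 0.244). No member's difference between tissues in a 5xFAD or vesicle effect was called, as for 0.0% of all 13574 genes.

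The surrounding pathways were read from lists of genes, in 5xFAD PBS against wildtype PBS. Of 17 inflammasome sensors and effectors besides the members, 10 could be tested in each tissue. In prefrontal cortex 3 rose, Naip2 (log2 fold change 1.12), Casp4 (0.83) and Casp8 (0.59), and none fell, beside 1.82% higher and 0.138% lower over all genes. In hippocampus 4 rose, Casp4 (1.24), Naip2 (1.05), Casp8 (0.99) and Gsdmd (0.98), and none fell, beside 4.19% and 0.406%. Naip2 is a receptor for bacterial ligands that works with Nlrc4, Casp4 is the protease of the non-canonical inflammasome, Casp8 is an apoptotic caspase, and Gsdmd forms the pore through which mature interleukin 1 leaves the cell. Casp4 went from 0.194 ± 0.0421 FPKM (SD, n = 3) in wildtype PBS hippocampus to 1.16 ± 0.328 in 5xFAD PBS (limma adjusted p = 0.00433). Casp4 and Naip2 were under 0.5 FPKM in every wildtype library, so they passed the filter through 5xFAD libraries alone and their calls add no support to the count. The median log2 fold change of the list, with both of these genes included, was 0.34 in prefrontal cortex and 0.46 in hippocampus, beside 0.02 over all genes. Against wildtype PBS, 5xFAD EV had 1 of 10 called higher in prefrontal cortex (Naip2, 0.84), beside 1.4% of all genes. In hippocampus it was 3 of 10 (Naip2, 1.10, Casp4, 1.01, and Gsdmd, 0.72), beside 1.93%. The calls of Naip2 and Casp4 add no support to these counts either. On reads Casp8 was not called in prefrontal cortex, while Aim2, a sensor of cytosolic DNA, was (1.13, voom adjusted p = 0.0464). The NAIP genes are near-identical copies of each other, and how shared reads were counted is not given in the sources used here, so values of single NAIP genes are uncertain.

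The other lists were read in the same way. Of the TNF receptor list, Tnfrsf1a rose in both tissues, by 0.67 in prefrontal cortex (limma adjusted p = 0.0128) and 0.96 in hippocampus (adjusted p = 0.00640), and Tnfrsf1b rose by 0.50 in prefrontal cortex (adjusted p = 0.0472). That was 2 of 7 and 1 of 8 genes tested, beside 1.82% and 4.19% of all genes called higher. Tnfrsf1a, the broadly expressed TNF receptor, had 4.36 ± 0.553 FPKM (SD, n = 3) in wildtype PBS and 7.18 ± 0.375 in 5xFAD PBS prefrontal cortex. None was called of the receptors and decoys for interleukin 1 and 18 (0 of 3 and 0 of 4 tested), of the adaptors and kinases that lead to NF-kB (0 of 12 and 0 of 11), or of the NF-kB subunits and inhibitors (0 of 11 in each), by limma or on reads. At an unadjusted p under 0.05 limma had 0 and 1 of the receptors, 3 and 4 of the adaptors and 1 and 3 of the subunits. Over all genes it had 1065 of 13055 in prefrontal cortex and 2500 of 13305 in hippocampus. Of the other cytokines 1 of 5 was called in each tissue, beside the same 1.82% and 4.19% of all genes. It was Tgfb1, a cytokine known to restrain microglial activation, which rose by 0.99 in prefrontal cortex and 1.26 in hippocampus (adjusted p = 0.00514 and 0.00353). Il6, another product of NF-kB signalling, stayed under the filter at 0 to 0.199 FPKM. No gene on these 6 lists was called between 5xFAD EV and 5xFAD PBS in either tissue, by limma or on reads, beside 0.0% of all genes. By limma 1 in each tissue had an unadjusted p under 0.05, beside 616 and 519 genes in all.

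**Figure D4:**
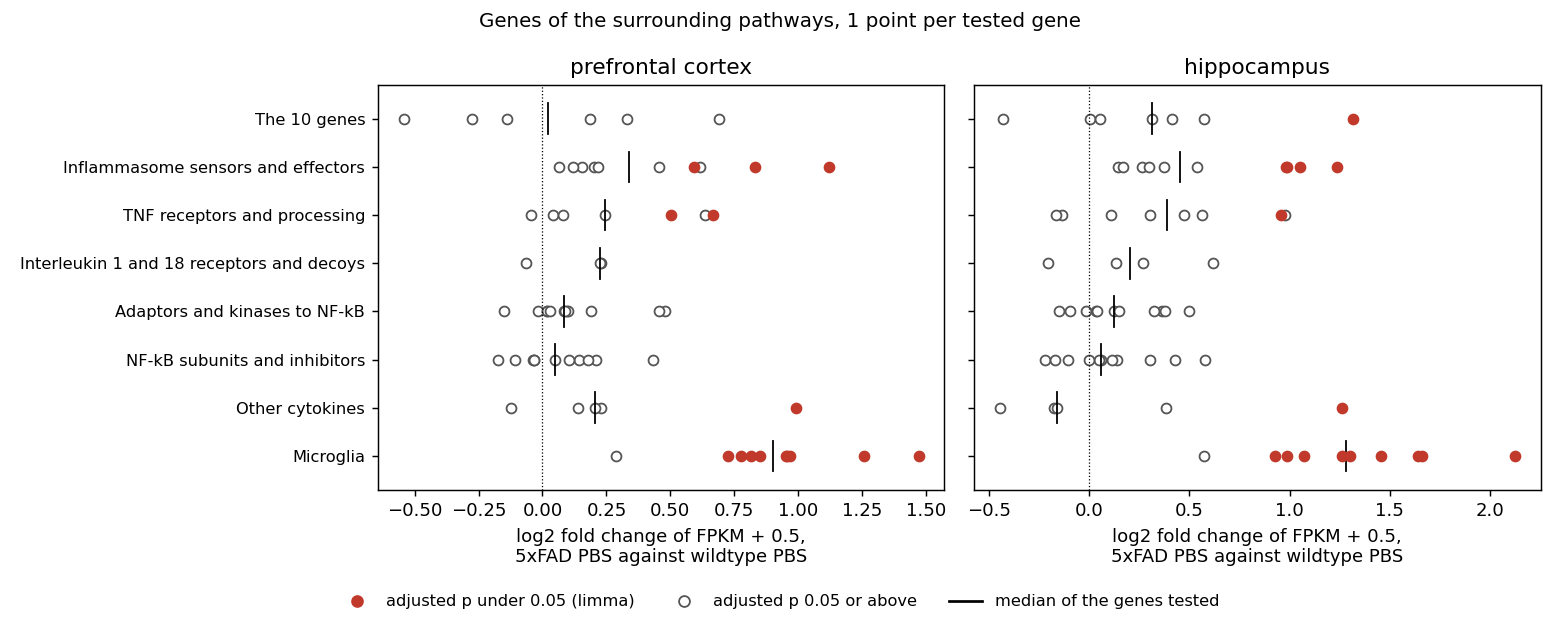
Log2 fold change of FPKM + 0.5 for 5xFAD PBS against wildtype PBS (horizontal axes) of each gene tested, by list, with filled points at a limma adjusted p under 0.05 and a bar at the list median. The inflammasome list and the microglial markers hold most of the filled points, with list medians of 0.34 and 0.90 in prefrontal cortex and 0.46 and 1.28 in hippocampus. Casp4 and Naip2, on the inflammasome list, passed the filter through 5xFAD libraries alone.

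Within the set, the levels of Nlrp3 and Pycard ran most closely together over the 18 libraries (Pearson r = 0.85 of log2 values), followed by Pycard and Nfkb2 (r = 0.78) and Casp1 and Nfkb2 (r = 0.70). Il1b ran with none of the other 9 above r = 0.34. These values describe 18 libraries that share tissues and groups. Over all genes that passed the filter, Pycard was closest to H2-DMb1 (r = 0.98), Apobec1 (r = 0.97) and Tapbp (r = 0.96). H2-DMb1 belongs to the MHC class II loading machinery and Tapbp to that of MHC class I. H2-DMb1 had 1.22 to 1.55 FPKM in wildtype PBS hippocampus and 5.42 to 8.03 in 5xFAD PBS. Tlr4, the receptor for bacterial endotoxin, was among the genes closest to Il1a (r = 0.82). The closest genes of Casp1, Nfkbia and Il18 had r of 0.88, 0.83 and 0.88, and those of Il1b only 0.66.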

How the data were processed

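Total RNA of 18 samples was sequenced on an Illumina NovaSeq with the VAHTS Universal V5 kit, per the labels' protocols. The authors deposited FPKM for 18683 genes. Per the submitters' processing notes, the tools were fastp, HISAT2 and HTSeq and the build GRCm39. Neither annotation nor strand setting is given in the sources used here, so antisense and overlapping genes cannot be told apart (Gm45205 overlaps Pycard, Gm14023 Il1a and Il1bos Il1b). Groups and replicate numbers come from the sample titles. Within a gene, values were whole multiples of a step for 100.0% of genes (relative tolerance 1e-06), which gave reads. Replicates differed from each other beyond sampling noise.

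Tests used limma 3.58.1 (R 4.3.3) on log2(FPKM + 0.5), a scale that understates changes of low genes, with eBayes and an intensity trend. The filter asked for 0.5 FPKM or more in 3 or more libraries of a fit (9 per tissue, 18 across tissues). Tests were two-sided with Benjamini-Hochberg adjustment over all genes tested. voom needed at least 10 reads in at least 3 libraries. On simulated data for 5xFAD PBS against wildtype PBS, 100% of 2-fold and 100% of 4-fold changes were recovered in each tissue (100 genes each). There were 20 false calls in prefrontal cortex and 16 in hippocampus, more than the threshold of 0.05 allows for. The changed genes had at least 1 FPKM in all 9 libraries of a tissue. All reads were drawn with 1 fixed spread, not one taken from these replicates. The recovery therefore does not speak for members below 1 FPKM, nor for the spread of these data. The members, lists and tests were chosen with earlier results of these data known. Named were all 10 members, any gene of the lists, called genes first, and genes among the 3 with the highest Pearson r with a member, of which 1 is not reported here. Same-numbered libraries all deviated together only in 5xFAD PBS against wildtype PBS in prefrontal cortex (correlations 0.169 to 0.509). There, 5xFAD PBS replicate 1 and wildtype PBS replicate 3 also had 0.300, so these values do not establish a pairing by number. The labels give none.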

Additional observations from a re-analysis of the deposited data

How the results depend on the processing

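Of the members, 1284 values under alternatives stayed on their side of the threshold, 11 came to be called and 5 lost a call, and no called value changed sign. Leaving out 1 library moved the number of genes called to 142 to 218 (256 with all) and 320 to 446 (611) for 5xFAD PBS against wildtype PBS in prefrontal cortex and hippocampus. For 5xFAD EV against wildtype PBS it was 89 to 229 (198) and 159 to 278 (280), for 5xFAD EV against 5xFAD PBS 0 to 1 (0) in each tissue, for hippocampus against prefrontal cortex in wildtype PBS 1476 to 2178 (2156), and 0 to 0 (0) for both differences between tissues. With the groups compared fitted alone, 118 genes were called for 5xFAD EV against wildtype PBS in prefrontal cortex and 42 for the difference between tissues in 5xFAD PBS against wildtype PBS. Without a filter on low values 1 gene was called for the difference between tissues in the vesicle effect. The number moved by over 1.5 times without any cortical library but wildtype PBS replicate 2 or any hippocampal one but 5xFAD PBS replicate 3 for 5xFAD PBS, and for 5xFAD EV without cortical wildtype PBS replicate 1 or 3 or 5xFAD EV replicate 1, or without any hippocampal wildtype PBS library. The causes were not tested. With the replicate block 218 genes were called for 5xFAD PBS against wildtype PBS in prefrontal cortex and 503 in hippocampus, and of the members only Casp1 between tissues came to be called (adjusted p = 0.0149), where same-numbered libraries did not deviate together. Without a filter Nlrp3 was called in hippocampus for 5xFAD PBS (0.58, limma adjusted p = 0.00817) and 5xFAD EV (0.54, adjusted p = 0.0175) against wildtype PBS. Depth limits Tnf, with 1 to 20 reads per library, and Il1b.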

Other observations

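Macrophages at the borders of the brain carry parts of the same machinery, and their markers were followed on a list of 6 genes (such as Mrc1 and Pf4). In hippocampus the summed level was 3.05 to 5.75 FPKM in wildtype PBS, 7.35 to 11.1 in 5xFAD PBS and 3.41 to 5.25 in 5xFAD EV, so the 5xFAD PBS libraries lay above both other groups. None of the 4 genes tested was called between any of these groups (limma). For 5xFAD PBS against wildtype PBS 3 of 4 had an unadjusted p under 0.05, beside 2500 of all 13305 genes. For 5xFAD EV against 5xFAD PBS it was 3 of 4, beside 519 of 13305, where 0.0% of genes were called. Both comparisons share the 5xFAD PBS libraries. In prefrontal cortex the sum was 4.24 to 7.15 FPKM over all 9 libraries. The choroid plexus sum also differed between hippocampal groups. It was 32.3 to 164 FPKM in wildtype PBS, 2603 to 8872 in 5xFAD PBS and 183 to 5677 in 5xFAD EV. Its part in the border macrophage sum was not tested. Markers of T and B cells, 8 genes in the table, summed to 0.198 to 4.65 FPKM over the 18 libraries.

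In wildtype mice 3 genes of interleukin 1 signalling that are not among the 10 differed between tissues. Il1r1, the signalling receptor, was higher in hippocampus by 1.44 on the log2 scale (2.0 ± 0.219 FPKM against 0.425 ± 0.124, SD, n = 3, limma adjusted p = 9.14e-05), Il1rap, its partner chain, by 0.75 (adjusted p = 0.000555) and the related cytokine Il33 by 0.68 (adjusted p = 0.00175). That was 3 of the 5 tested genes of the receptor list, beside 8.72% of all genes tested. Il1r1 averaged under 0.5 FPKM in wildtype prefrontal cortex, so it may have passed the filter through hippocampal libraries alone. Its call adds no support to that count. Il16 was higher by 2.75 (adjusted p = 0.0032) and Il34, a ligand of the microglial receptor encoded by Csf1r, differed by -0.58 (adjusted p = 0.000171). In prefrontal cortex, Il16 was 0.517 to 9.77 FPKM in 5xFAD EV, where the other 6 libraries had 0.420 to 0.630. The lowest 5xFAD EV value lay within the range of those others. Il16 was not called between 5xFAD EV and 5xFAD PBS in either tissue, and what lay behind its highest value was not tested.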
